A study of Mus musculus with 4 samples.

Results

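Liver RNA from HSL-null mice on a normal diet was compared with liver RNA from wild-type mice on the same diet. HSL is hormone-sensitive lipase, the product of Lipe, and HSL-null mice carry a general knockout of it. The comparison takes the array of each of these 2 groups from the 4 arrays of the series and covers every gene that a single-gene probe set of the MG_U74Av2 array measured. That is 8251 genes, of which 4829 passed a filter on low signal and are described below. The mice were female, 8 months old and killed in the fed state. The normal diet (ND) had 11% of its energy from fat and was fed for 6 months. The other pair of arrays came from wild-type and HSL-null females of the same age on a high-fat diet (FD) with 58% of energy from fat. Each pool combined RNA of 6 livers, except that of HSL-null mice on FD, which combined 4. Each pool went onto 1 array, so no value has a replicate, there was no test, and "higher" and "lower" refer to the pools alone. In whole liver, fewer cells of a type and less RNA per cell cannot be told apart.

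Hormone-sensitive lipase releases fatty acids from stored acylglycerols and also splits cholesteryl esters. Its main site is adipose tissue, which sends fatty acids and hormones to the liver, and the liver itself holds little of the enzyme. Liver answers changes in fatty acid supply, sterol content, insulin and growth hormone largely through transcription, with sterol-regulated synthesis genes, insulin-repressed genes such as Igfbp1, and sex-biased cytochrome P450 genes among the best known readouts.

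Lipe was read by 1 probe set. Its signal was 28 in wild type and 11.9 in HSL-null liver on ND, and 34.0 and 15.9 on FD. Both HSL-null pools lay under both wild-type pools, and the log2 ratio (HSL-null over wild type) was -1.23 on ND. The mean of the 4 signals, 22.45, was under the filter of 26.9. No source used here places the probes within or outside the deletion, so Lipe is a partial check of the labels. The median signal over all probe sets was 27.8 in wild type and 25.4 in HSL-null liver on ND, and 24.1% and 26.0% of probe sets lay at or under a floor of 6.1, the signal below which values were raised to the floor. The mean signal of the 18S ribosomal RNA control probe sets was 192.2 in wild type and 307.1 in HSL-null liver on ND, and 84.2 and 99.1 on FD, and its part in the ratios was not tested. Each genotype had its own solution lot in the run settings and each array its own fluidics module (1 to 4), so the lots and the genotypes, or a module and its group, cannot be told apart.

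Most genes had nearly the same signal in both ND pools. The log2 ratio over the 4829 genes had a median of -0.018 and an SD of 0.34, the 5th percentile was -0.55 and the 95th 0.44, and 4504 genes (93.3%) were within 1.5-fold of equality. Ratios were above 0 for 47.3% of genes and below 0 for 52.6%. At a ratio of 2-fold or more, 24 genes were higher in HSL-null liver (0.497% of all genes kept) and 52 were lower (1.08%), which makes 1.57% in either direction. On FD the corresponding shares were 1.86% higher and 0.953% lower, or 2.82% in either direction. The balance on ND moved with the scaling of the arrays, since median scaling, which added 0.13 to every ratio, gave 30 higher and 36 lower, quantile normalization 28 and 38, and cyclic loess 28 and 40. The edge of 2-fold was not a gap. Between log2 ratios of 0.9 and 1 there were 4 higher and 20 lower genes, and between 1 and 1.1 there were 8 and 14.

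**Figure D1:**
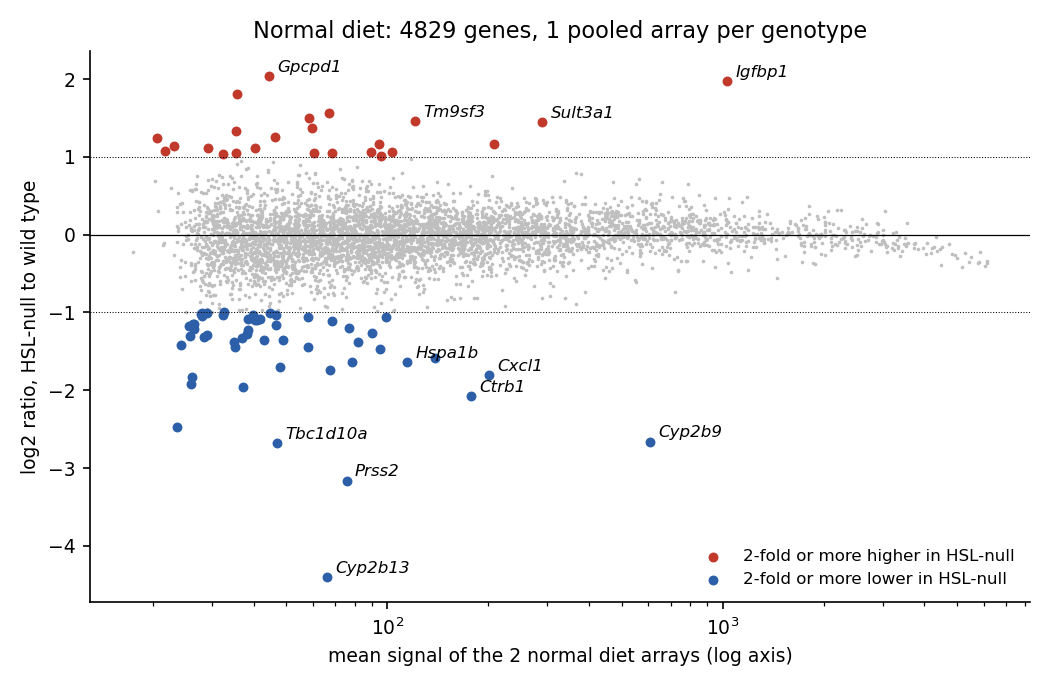
Each point is 1 of 4829 genes, with the mean of its 2 normal diet signals on a log axis and the log2 ratio (HSL-null over wild type) on the vertical axis, and dotted lines mark 2-fold. The 24 genes 2-fold higher and 52 genes 2-fold lower sit mostly among dim signals, while Cyp2b9 and Igfbp1 stand apart at high signal.

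Dim genes made up most of the 76. With the genes split by mean signal into 10 equal groups, the dimmest group held 7 higher and 21 lower genes and the next 3 and 15, whereas the 3 brightest groups held 2 higher genes and 1 lower gene. Both ND signals were under 100 in 16 of the 24 higher and 38 of the 52 lower genes, against 46.0% of all genes. The error that can be read from these arrays is the disagreement between the probe sets of a gene. Over the 687 genes with a second kept probe set it gave an SD of a log2 ratio of 0.30. It was 0.42 for the 229 genes whose second probe set was dimmest, where 7.42% of pairs lay 2-fold or more apart. It was 0.17 for the 229 brightest, where 0% did. This SD leaves out error shared on an array and the variation between animals. A 2-fold ratio was thus larger than any disagreement seen between bright probe sets, while 7.42% of the dim pairs disagreed by that much or more.

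**Figure D2:**
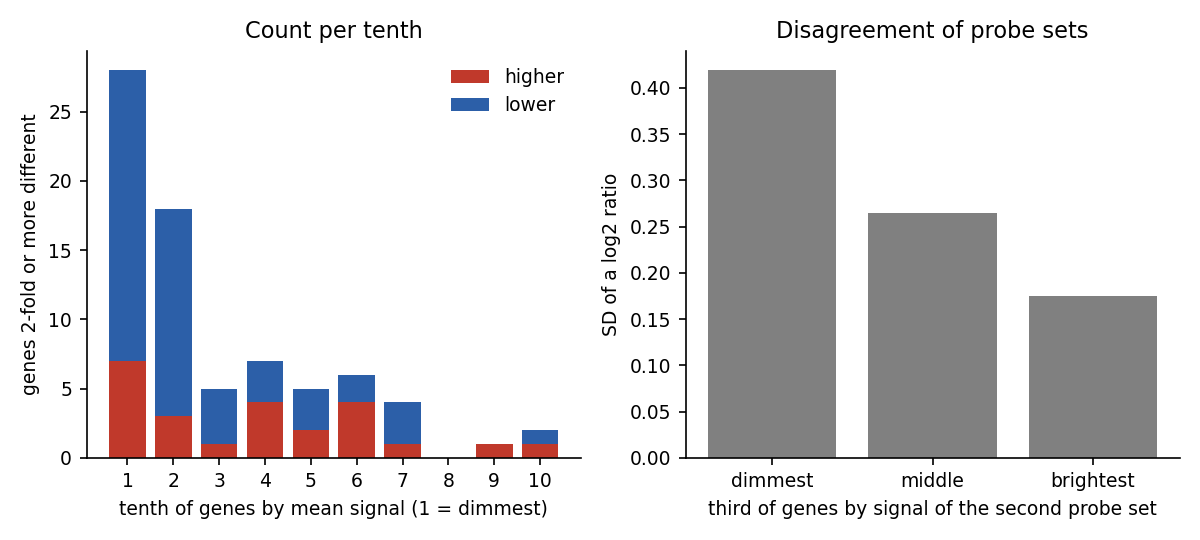
The left panel counts genes 2-fold or more higher or lower in HSL-null liver in 10 equal groups of genes ordered by mean signal, from dimmest to brightest. The right panel gives the SD of a log2 ratio from the disagreement of a gene's brightest probe sets, in equal groups of 229 genes, falling from 0.42 to 0.17.

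Among the 2464 genes with a mean signal of 100 or more, 7 were 2-fold higher and 7 were 2-fold lower. The lower genes were Cyp2b13, Cyp2b9, Ctrb1, Cxcl1, Hspa1b, 2210010C04Rik and Dbp. The higher genes were Igfbp1, Sult3a1, Tm9sf3, Tubb3, C1d, Prelid1 and Dcaf12. Of the 76 genes, 25 stayed 2-fold different under all 3 other scalings, with the floor at the median signal and with a pseudocount of 16. They include Cyp2b9, Cyp2b13, Cxcl1, Usp2, Hspa1b, Igfbp1, Sult3a1, Blvra and 5 genes of the exocrine pancreas (Prss2, Ctrb1, Reg1, Clps and Cel).

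Where each array stood among the 4 differed between the directions. The wild-type ND array was the highest of the 4 for 39 of the 52 lower genes (75.0%, against 29.8% of all genes). The HSL-null ND array was the lowest of the 4 for 32 of them (61.5%, against 19.4%). For the 24 higher genes, the wild-type ND array was the lowest for 21 (87.5%, against 24.4%), and the HSL-null ND array the highest for 13 (54.2%, against 15.6%). These genes were chosen on 2 of the 4 arrays, so both shares are raised by the choice itself. The filter on low signal raises them too. Some dim lower genes, such as Fgf4, Urm1 and Twf2, passed it only through the wild-type ND array. Some dim higher genes, such as Add1 and Matk, passed it only through the HSL-null ND array. In the FD pair, which shares no array with the ND pair, 23 of the 52 lower genes were again below wild type and 28 above it. Of the 24 higher genes, 17 were again above wild type, where 46.3% of all genes had the same direction on both diets. That share covers both directions. The median FD log2 ratio over all genes was 0.067, so more genes lay above 0 than below it on FD. At 2-fold in the same direction on FD were 6 of the lower genes (Cyp2b13, Cyp2b9, Usp2, Hspa1b, Dbp and Tbc1d10a) and 3 of the higher genes (Igfbp1, Gpcpd1 and Klf2). Over all 4829 genes, 58 were 2-fold different on FD in the direction of their ND ratio, whatever its size, and 77 in the opposite one.

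**Figure D3:**
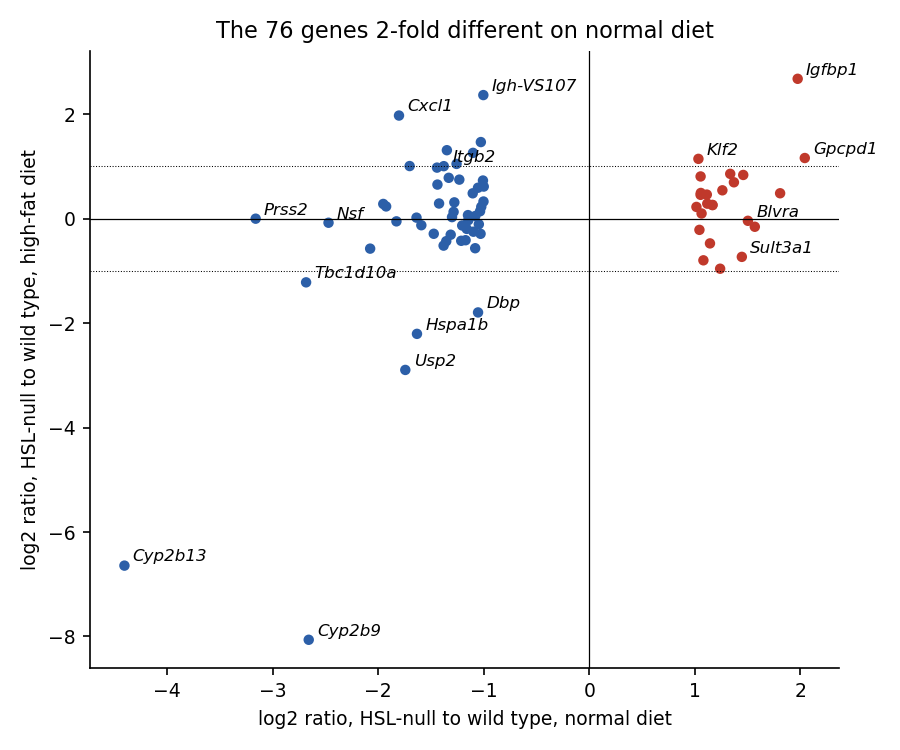
Each point is 1 of the 76 genes 2-fold different on normal diet, with its log2 ratio (HSL-null over wild type) on normal diet across and on high-fat diet upward, and horizontal dotted lines at 2-fold. Cyp2b9, Cyp2b13, Usp2, Hspa1b and Dbp lie low on both axes and Igfbp1 high on both, while Cxcl1 and Itgb2 lie low on normal diet and high on high-fat diet.

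Cyp2b13 and Cyp2b9 had the lowest ratios of the genes from the liver lists. They encode cytochrome P450 enzymes of the 2b family that hydroxylate steroids and are made mainly in female mouse liver, and they are near copies of each other. The 250 bases before their start sites are shown because they are the part of each gene that precedes transcription and because they show how close the pair is. Both stretches come from RefSeq for the build GRCm38.p6, plus strand, at chr7:26173159-26173408 for Cyp2b9 and chr7:26061245-26061494 for Cyp2b13. Capitals mark the positions at which they differ. The pair was identical at 248 of 250 aligned bases (99.2%), with 0 gapped positions, while each matched the drug-induced family member Cyp2b10 at 182 of 260 alignment columns (70%), gaps included. Whether probes for either gene also bind RNA of the other could not be examined without probe sequences.
Cyp2b9: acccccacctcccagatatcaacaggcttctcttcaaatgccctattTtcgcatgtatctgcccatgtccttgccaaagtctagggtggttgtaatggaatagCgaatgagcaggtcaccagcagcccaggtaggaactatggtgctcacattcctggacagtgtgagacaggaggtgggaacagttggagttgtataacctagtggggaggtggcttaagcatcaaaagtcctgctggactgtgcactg
Cyp2b13: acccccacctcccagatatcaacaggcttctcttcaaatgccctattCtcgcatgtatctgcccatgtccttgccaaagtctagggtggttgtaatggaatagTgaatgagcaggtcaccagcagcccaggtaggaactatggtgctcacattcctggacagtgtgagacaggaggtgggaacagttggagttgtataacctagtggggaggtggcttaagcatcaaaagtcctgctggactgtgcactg

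Cyp2b13 had a signal of 129.1 in wild type and 3.2 in HSL-null liver on ND, and of 610.0 and 1.3 on FD. Since the HSL-null signals were under the floor, Cyp2b13 was at least 21.2-fold lower on ND. Cyp2b9 had 1045.7 and 165.7 on ND and 1632.5 and 2.1 on FD. Its log2 ratio on ND was -2.66, or 6.31-fold. Cyp2b9 had a strong signal in each wild-type pool, and it kept a clear signal in the HSL-null ND pool that it lacked in the HSL-null FD pool. The wild-type ND signal of Cyp2b13 was nearer the median of the kept genes on that array, 103.9. Cyp2b10 had 44.5 and 28.4 on ND, a log2 ratio of -0.65 that is under 2-fold.

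The other members of the list of female-biased liver genes went both ways. Of its 12 members, Cyp2b9 and Cyp2b13 included, 7 were above 0 and 5 below, around a median of 0.094, and Cyp2b10 and Prom1 (-0.23) were among those below. Sult3a1, a sulfotransferase, was the member 2-fold higher, with signals of 155.8 in wild type and 424.1 in HSL-null liver, a log2 ratio of 1.44. On FD its signals were 771.5 and 464.8. The wild-type ND signal was thus the lowest of the 4, and the HSL-null ND signal was close to that of the HSL-null FD pool. Hao2, a hydroxyacid oxidase gene, had a log2 ratio of 0.43, the peroxisomal transporter gene Abcd2 0.39, Cyp4a14, a fatty acid omega-hydroxylase, -0.41 and Cyp17a1, the steroid 17-hydroxylase and lyase, 0.05.

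The 10 genes of male-biased expression were split into 5 above 0 and 5 below, around a median of 0.18 that ranged from -0.080 to 0.38 over the alternatives. Serpina12, which encodes the adipokine vaspin, had 152.4 in wild type and 257.6 in HSL-null liver, a log2 ratio of 0.76. Hsd3b2, a hydroxysteroid dehydrogenase gene, had 0.65 and C9, the terminal complement component, 0.48, while Serpina1e had -0.35 and the major urinary protein genes Mup3 and Mup5 had -0.03 and -0.21. Egfr had 0.60 at the probe set that stood for it, 0.42 at another and -0.73 at a further one. Growth hormone and IGF genes had a median of -0.0024 over 18 genes, or 0.13 under median scaling and 0.029 under cyclic loess. Near 0 were Ghr (0.27), Igf1 (-0.09), Igfals (0.05), Stat5b (-0.12) and Socs2 (0.13). Cish, which growth hormone induces through STAT5, had -0.78 with signals of 87.7 and 51.1. Bcl6, a repressor of sex-biased genes, had -0.54, and Onecut1, a hepatocyte transcription factor, -0.57.

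The remaining cytochrome P450 genes differed little, with a median of 0.083 over 20 genes, 14 above 0 and none 2-fold different. The largest ratio was that of Cyp2f2, with 614.8 in wild type and 965.0 in HSL-null liver, a log2 ratio of 0.65. Cyp2c29 had 0.44, Cyb5r3, which passes electrons to cytochrome b5, 0.36, and Cyp2e1, the ethanol-oxidising enzyme, -0.29. Genes of conjugation and glutathione metabolism had a median of 0.068 over 34 genes, from -0.62 for Hmox1 to 0.47 for Gsta4. Retinoid genes had a median of 0.040 over 18 genes, led by the retinol dehydrogenase gene Rdh11, with 426.7 and 698.4 (0.71), and the aldehyde dehydrogenase gene Aldh1a7 (0.68).

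Lipe lies on chromosome 7 near the Cyp2b cluster. Within 1 Mb of it the arrays kept 18 genes, with a median log2 ratio of -0.0058, 9 above 0 and 9 below, and Cyp2b9 and Cyp2b13 were the 2 genes past 2-fold. Apart from these and Cyp2b10, the 15 others ranged from -0.65 for Arhgef1 to 0.69 for Grik5, both dim, with signals of 35.6 and 22.7 and of 15.5 and 25. The bright neighbours were close to equality, among them Ceacam1 (389.0 and 396.2), Rabac1 (780.9 and 830.7), Gsk3a (702.7 and 813.4) and Ethe1 (569.0 and 684.6).

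Igfbp1, which binds insulin-like growth factors in blood and is repressed by insulin, was the brightest of the higher genes. Its signal was 419.7 in wild type and 1648.5 in HSL-null liver on ND, and 270.8 and 1734.1 on FD. The HSL-null pools did not overlap the wild-type pools, and the ND ratio was 3.93-fold, a log2 ratio of 1.97. The probe set carries a suffix for probes shared within a sequence family, and the other probe set for Igfbp1 was under the floor in all 4 pools. A stretch upstream of its start is shown because it holds the letters CAAAACAA, the core of the insulin response element through which FOXO factors act. It runs from 138 to 71 bases before the start, on the plus strand at chr11:7197649-7197716 of GRCm38.p6, with the match in capitals. Searched on both strands in the 250 bases before the start, these letters occurred at 2.54% of 27025 genes in RefSeq, and at 1 of 17 genes with a window among the growth hormone and insulin-like growth factor genes. Such a match is a description and not evidence of binding.
Igfbp1: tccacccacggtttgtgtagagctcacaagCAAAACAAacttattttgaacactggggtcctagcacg

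Other insulin-responsive genes differed less than Igfbp1. The gluconeogenic genes G6pc, with 1285.6 in wild type and 1348.0 in HSL-null liver, and Pck1, with 927.1 and 1100.8, had log2 ratios of 0.07 and 0.25. Irs2, the insulin receptor substrate of liver, had -0.14. Ddit4, a stress-induced inhibitor of mTORC1, had 44.5 and 92.4, a log2 ratio of 1.05, and was again the higher on FD, with 69.7 and 122.1. Igf1r, the receptor for insulin-like growth factor 1, had 52.0 and 24.6 (-1.08), and the 2 FD signals, 30.5 and 31.6, lay between them. Insulin and mTOR signalling genes had a median of -0.051 over 22 genes, which became 0.080 under median scaling, with Igfbp1 and Ddit4 as the 2 genes 2-fold higher.

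Of 29 glucose metabolism genes, 19 were above 0 and 10 below, where 47.3% of all genes were above 0, and the median was 0.17. None was 2-fold different. Pgd, of the pentose phosphate pathway, had 80.8 and 139.7 (0.79), Ppp1r3c, which targets a phosphatase to glycogen, 27.1 and 45.9 (0.76), and Pdk4, which inhibits pyruvate dehydrogenase, 35.1 and 56.9 (0.70). Pklr, the liver pyruvate kinase, had 0.39, but 0.07 at another probe set. Pkm had -0.76 by its brighter probe set and 0.42 by another, so its direction rests on the probe set. Slc37a4, the glucose 6-phosphate transporter, had -0.45 and Pfkl, the liver phosphofructokinase, -0.35.

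Cholesterol synthesis genes were moderately higher in HSL-null liver on ND. Of 17 genes kept, 12 were above 0 and 5 below, with a median log2 ratio of 0.28, against a median of -0.018 and 47.3% above 0 over all genes. None reached 2-fold. The median stayed between 0.27 and 0.41 under every alternative. SREBP-2 drives this pathway when cells are short of sterol, and it acts together with the factor NF-Y at CCAAT boxes.

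Along the pathway, Hmgcs1, which makes HMG-CoA, had 266.9 in wild type and 463.2 in HSL-null liver, a log2 ratio of 0.80. Its FD signals were 452.2 and 421.7. Wild type on ND was thus the low pool of the 4. Mvd, mevalonate diphosphate decarboxylase, had 25.2 and 42.5 (0.75), and Sqle, squalene epoxidase, had 186.3 and 283.2 (0.60). Cyp51, the lanosterol 14-demethylase, had 32.0 and 55.9 (0.80). Msmo1, a sterol C4 oxidase, had 117.8 and 184.9 (0.65), and Dhcr7, which reduces 7-dehydrocholesterol, 77.3 and 112.7 (0.54). Nsdhl had 0.37 at its brightest probe set and 0.64 and 0.05 at others. Sc5d, sterol C5 desaturase, had 0.40, but 0.11 at another probe set.

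The members that were level or below were Idi1 (-0.13), Mvk (-0.10), Lbr (-0.03), Tm7sf2 (253.9 and 253.0) and Fdft1, the gene of squalene synthase (269.4 and 268.7). Of the other members, Fdps had 0.21, Lss 0.28, Ebp 0.28 and Hsd17b7 0.09. Ratios above 0 thus occurred from the start to the end of the route, with some level steps among them. On FD the same 17 genes had 16 below 0 and a median of -1.19. Wild-type FD signals lay above wild-type ND signals for most of these genes, and HSL-null FD signals below HSL-null ND signals, as in Sqle, with 258.4 in wild type and 72.9 in HSL-null liver on FD.

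The proximal promoters of 4 of the higher genes are shown for their CCAAT boxes. RefSeq windows were matched for 14 of the 17 genes, and CCAAT, searched on both strands so that ATTGG is the same box read on the other strand, occurred in 14 of 14, against 37.5% of all genes. The core of the sterol element TCACNCCA occurred in 2 of 14, Hmgcs1 and Msmo1, against 4.20% of all genes. Capitals mark the CCAAT or ATTGG letters. The stretches lie at chr5:4104707-4104741, minus strand, for Cyp51, at chr8:122443430-122443497, minus strand, for Mvd, at chr8:64733614-64733753, minus strand, for Msmo1 and at chr9:42264305-42264339, minus strand, for Sc5d, all in GRCm38.p6. Each ends within 36 bases of the start site. Letters found in a window say nothing on which factor was bound in these livers.
Cyp51: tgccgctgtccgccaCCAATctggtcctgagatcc
Mvd: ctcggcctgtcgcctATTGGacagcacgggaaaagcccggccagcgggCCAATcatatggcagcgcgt
Msmo1: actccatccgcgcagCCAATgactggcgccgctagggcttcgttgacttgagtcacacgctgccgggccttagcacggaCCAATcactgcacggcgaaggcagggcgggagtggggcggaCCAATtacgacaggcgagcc
Sc5d: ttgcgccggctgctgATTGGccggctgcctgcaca

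Genes of sterol transport and regulation did not follow the synthesis genes. Their median was -0.16 over 10 genes, or -0.031 under median scaling, with 3 above 0 and 7 below. Lrp1, a lipoprotein remnant receptor, had 513.4 in wild type and 386.5 in HSL-null liver, a log2 ratio of -0.41. Abcg1 had -0.33, Abca1, which exports cholesterol, -0.18, Nr1h3, the oxysterol receptor LXR alpha, -0.21 and Srebf1, which encodes SREBP-1, -0.20. Lipa, the lysosomal acid lipase that splits cholesteryl esters, had 179.9 and 241.5 (0.42).

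Genes of fatty acid synthesis were mixed. The median was 0.010 over 18 genes, 10 above 0 and 8 below, and was -0.0033 under quantile normalization. Gpam, which starts triglyceride assembly, had 428.7 and 672.5 (0.65), Acly, ATP citrate lyase, 798.6 and 1104.8 (0.47), and Me1, malic enzyme, 454.1 and 580.0 (0.35). Fasn, fatty acid synthase, was level, with 718.6 and 722.8. Thrsp, which promotes lipogenesis, had 1234.7 and 883.4 (-0.48), and Scd1, stearoyl-CoA desaturase, 5918.0 and 4425.9 (-0.42), with -0.22 at another probe set.

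Genes that act next to HSL in neutral lipid hydrolysis had a median of 0.083 over 14 genes. Pnpla2, adipose triglyceride lipase, had 254.9 in wild type and 224.4 in HSL-null liver, a log2 ratio of -0.18. Its activator Abhd5 had 0.17, Mgll, monoacylglycerol lipase, 0.09, and the carboxylesterase genes Ces3a, Ces1d and Ces1g 0.30, 0.03 and 0.10. G0s2, an inhibitor of adipose triglyceride lipase, had 383.1 and 241.7 (-0.66) and was lower on FD too, with 343.7 and 197.1. Cel, the bile salt-dependent lipase, was the 1 member past 2-fold and is described with the pancreatic genes. No lipase of this list was higher by 2-fold where HSL was missing. Only 0.497% of all genes kept were, so the lack of such a gene among 14 says little.

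Fatty acid oxidation genes were near equality, with a median of -0.031 over 16 genes, or 0.099 under median scaling, from -0.24 for Acadm, the medium-chain dehydrogenase, to 0.70 for Pdk4. Cpt1a, the rate-limiting carnitine transferase, had 1480.3 and 1408.2 (-0.07). Peroxisomal and omega-oxidation targets of PPAR alpha had a median of 0.016 over 17 genes, or -0.032 under quantile normalization. Pex11a, a peroxisome division gene, had 431.4 and 246.0 (-0.81) and was lower on FD as well, with 469.4 and 292.9, while Ppara itself had -0.04, Ehhadh 0.31 and Cyp4a10 0.33.

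Lipoprotein and bile acid genes were near level too. Apolipoprotein genes had a median of -0.040 over 18 genes, or 0.090 under median scaling and 0.019 under quantile normalization, with Pltp, the phospholipid transfer protein, at -0.53 and Mttp, which loads lipid onto apolipoprotein B, at 0.42. Bile acid genes had a median of 0.035 over 15 genes, or -0.0100 under quantile normalization. Cyp7a1, the rate-limiting enzyme of bile acid synthesis, had 111.1 and 92.6 (-0.26), and Cyp8b1, which makes cholic acid, 532.2 and 765.3 (0.52). Fatty acid binding and uptake genes had a median of 0.050 over 12 genes, with Fabp1, the liver fatty acid binding protein, at -0.40 and Cd36, a fatty acid translocase, at -0.17 with signals of 28.1 and 24.9.

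Clock genes went both ways. The list median was -0.097 over 16 genes, 7 above 0 and 9 below, and was -0.49 over the 6 members with a mean signal of 100 or more. Usp2, a deubiquitinase with a strong daily rhythm, had 104.1 in wild type and 31.1 in HSL-null liver, and 189.1 and 25.4 on FD. Its log2 ratio on ND was -1.74, and -1.02 at its other probe set. Dbp, an output transcription factor driven by CLOCK and BMAL1, had 133.5 and 64.3 on ND and 188.8 and 54.4 on FD, a log2 ratio of -1.05 on ND. The HSL-null pools were below both wild-type pools for each of these genes. Both genes were named for the size of their ND ratios, and how many of all genes had this order was not counted.

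Tef, a relative of Dbp, had 105.3 and 68.2 (-0.63) and Per1, a repressor within the clock, 49.9 and 25.8 (-0.95). Per1 passed the filter on low signal only through the wild-type ND array, so the filter favours its low ratio. Bhlhe40, another repressor, had 387.9 and 225.1 (-0.79) on ND, but 291.8 and 306.0 on FD. Higher were Nfil3, which opposes Dbp at shared sites, with 27.3 and 65.4 (1.26) and -0.68 at a probe set with a family suffix, Arntl, the gene of BMAL1, with 34.5 and 49.3 (0.51), and Cry1 with 0.46. Nr1d2 had -0.42, and Clock (-0.15), Cry2 (-0.04), Nr1d1 (0.01) and Rora (0.03) were near 0. The sources used here do not give the hour at which livers were taken. E-boxes spelled CACGTG occurred upstream of Per1, Tef and Cry1, or 3 of 14 clock genes with a window, against 6.86% of all genes.

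Of 29 heat shock and chaperone genes, 1 was past 2-fold. Hspa1b, an inducible HSP70, had 173.0 in wild type and 55.8 in HSL-null liver on ND, and 285.5 and 61.9 on FD, a log2 ratio of -1.63 on ND. Hsph1, a nucleotide exchange partner of HSP70, had 368.5 and 209.6 (-0.81), Hsp90aa1, the inducible HSP90, 900.7 and 541.0 (-0.74), and Dnajb1, a co-chaperone, 128.9 and 87.0 (-0.57). Chordc1, an HSP90 co-chaperone, had -0.53, and -0.59 at its other probe set. For these 5 genes both HSL-null pools lay under both wild-type pools. They were named for the size of their ND ratios, and the share of all genes with this order was not taken.

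Hspa1a, the near-identical neighbour of Hspa1b, had 33.4 and 23.2 (-0.53), and whether the probes separate the pair could not be examined. Lower by less were Hspa4l (-0.46), Dnajb4 (-0.39), Hspa4 (-0.33) and Dnaja2 (-0.31), and the inducible genes Bag3 and Hspb8 had 0.03 and -0.11. Near 0 were Hspa8 (-0.08) and Dnaja1 (-0.04), the mitochondrial genes Hspd1 and Hspe1 at -0.07 and 0.08, and 6 chaperonin subunit genes from -0.15 to 0.24. Stip1, which joins HSP70 to HSP90, had 0.53. Over the list of 29 genes the median was -0.072, with 17 below 0, and it was 0.059 under median scaling.

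The stretch below is shown because Hspa1b and Hspa1a share it letter for letter, 134 to 67 bases before each start. It lies at chr17:34959305-34959372 for Hspa1b and at chr17:34972223-34972290 for Hspa1a, minus strand, GRCm38.p6 in RefSeq. Capitals mark GAANNTTC, a pair of units of the heat shock element, the site of heat shock factor 1. On either strand of the upstream 250 bases this motif occurred in 7 of 24 list members with a window and in 7.73% of all genes. The 7 were Hspa1b, Hspa1a, Hspe1, Hspd1, Dnaja1, Fkbp4 and Cct2, so most members with the letters had ratios near 0.
Hspa1b: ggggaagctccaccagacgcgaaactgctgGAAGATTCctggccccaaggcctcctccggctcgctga

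ER stress genes had a median of -0.14 over 25 genes, or -0.0052 under median scaling. Of them 8 were above 0 and 17 below, where 52.6% of all genes were below 0, and none was 2-fold different. Hspa5, the main ER chaperone, had 1630.2 and 1892.3 (0.22), and Pdia3, a disulfide isomerase, 0.39. Asns, asparagine synthetase, a target of ATF4, had 145.8 and 95.6 (-0.61), Atf4 -0.42 and Creld2 -0.49. P4hb had -0.45, but 0.08 by a dimmer probe set.

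Several genes of the exocrine pancreas had a high signal in the wild-type ND pool and a lower one in the HSL-null ND pool. Of 24 markers listed, 15 were on the array and 7 were kept. All 7 were below 0, and 6 were 2-fold or more lower, with a median log2 ratio of -1.64, where 1.08% of all genes were 2-fold lower. Prss2, Reg1 and Cela2a passed the filter on low signal only through the wild-type ND array, so the filter fixes part of this count and median. On the other 3 arrays Ctrb1, Clps, Cel and Cela1 had means above the filter by themselves. Prss2, a trypsinogen, had 135.9 in wild type and 15.2 in HSL-null liver on ND, and 4.6 and 1.9 on FD. Ctrb1, chymotrypsinogen, had 286.3 and 67.9 on ND and 74.1 and 49.8 on FD, a log2 ratio of -2.08. Clps, the cofactor of pancreatic lipase, had 118.8 and 38.2 on ND and 42.6 and 43.2 on FD (-1.64). In each of these genes the wild-type ND pool was high and the other 3 pools were far below it.

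Reg1 (-1.95), Cel (-1.47) and the elastase gene Cela2a (-1.36) were also highest in the wild-type ND pool, and Cela1, with 158.5 and 116.4 on ND and 99.9 and 184.1 on FD, was not. The summed signal of the 7 genes was 967.8 in wild type on ND, 330.5 in HSL-null on ND, 341.0 in wild type on FD and 383.8 in HSL-null on FD. Of the 8 members under the filter, 5 were highest of the 4 in the wild-type ND pool, against 29.8% of all kept genes. Among them were Reg2, with 43.2 against 2.2 to 3.0 elsewhere, and Zg16, with 34.1 against 2.6 to 3.9. In the HSL-null ND pool 7 were at or under the floor, where 26.0% of all probe sets were. Members under the filter are dim by definition, and most of the 8 were also under the floor in both FD pools. 2210010C04Rik, a gene outside the list, followed the same pattern, with 207.9 and 69.0 on ND and 65.0 and 59.6 on FD. Its probe set and that of Prss2 carry a suffix for probes shared within a sequence family, so the 2 readings may not be separate. What the pancreatic signal in the wild-type ND pool came from was not tested.

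**Figure D4:**
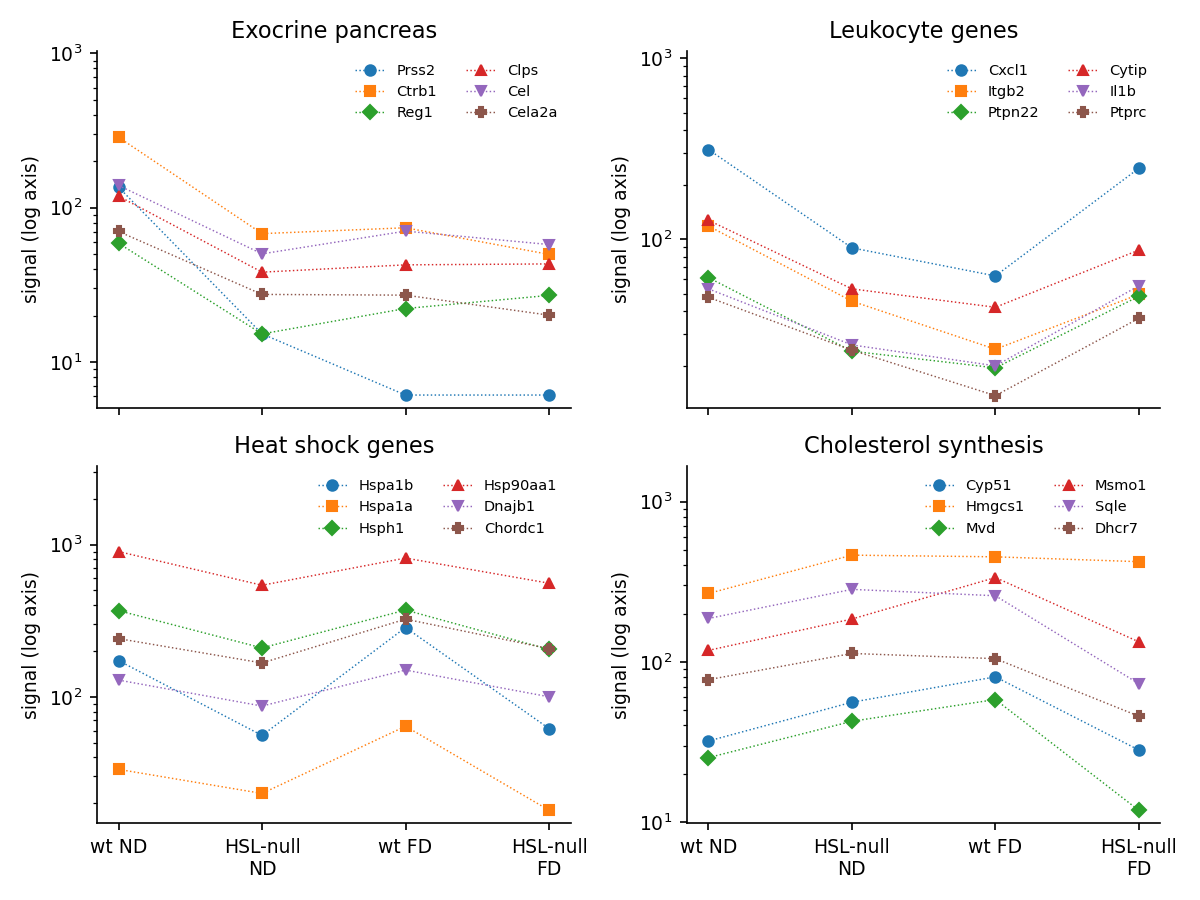
Signals on a log axis of genes from 4 groups on each of the 4 pooled arrays (wt, wild type), 1 marker per gene, with signals under the floor of 6.1 drawn at it and dotted lines joining 1 gene. Pancreatic genes are high on the wild-type ND array alone, most leukocyte genes are lowest on the wild-type FD array, heat shock genes such as Hspa1b are lower on both HSL-null arrays, and the 6 cholesterol synthesis genes are higher on the HSL-null ND array than on the wild-type ND array.

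Most chemokine and leukocyte genes were lower in the HSL-null ND pool. Of 28 genes kept, 23 were below 0 and 5 above, with a median log2 ratio of -0.41, where 52.6% of all genes were below 0. Past 2-fold were 5 lower genes, against 1.08% of all genes. Cxcl1, a chemokine that draws neutrophils, had 312.6 in wild type and 89.6 in HSL-null liver on ND, and 62.7 and 246.5 on FD. The log2 ratio was -1.80 on ND, and -1.60 at its other probe set. Itgb2, the integrin beta chain CD18 of leukocytes, had 118.3 and 45.5 on ND and 24.7 and 49.6 on FD (-1.38). In both genes the wild-type ND pool was the highest and the wild-type FD pool the lowest of the 4, so the order of genotypes turned between diets.

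Ptpn22, a phosphatase of lymphocytes, had 61.4 and 24.1 on ND and 19.5 and 48.4 on FD (-1.35). Cytip, which regulates leukocyte adhesion, had 127.2 and 53.2 on ND and 42.1 and 87.1 on FD (-1.26). Il1b, the gene of interleukin 1 beta, had 53.2 and 26.1 on ND and 20.0 and 55.3 on FD (-1.03). In all 3 the wild-type FD pool was the lowest, as for Itgb2, and for Il1b the HSL-null FD pool was slightly above the wild-type ND pool. Ptprc, the pan-leukocyte antigen CD45, had -0.97, Cd48 -0.94, Itgb7 -0.83, Laptm5 -0.66 and Cd52 -0.64. Of these, Ptprc passed the filter on low signal only through the wild-type ND array. Above 0 were Cxcl9, an interferon-induced chemokine, with 100.6 and 155.4 (0.63), Il18 (0.33), Ccl2 (0.16), Vcam1 (0.13) and Cxcl12 (0.09).

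Of the 52 lower genes, Cd72, a B cell receptor partner (-1.44), Pirb, an inhibitory receptor (-1.33), Tbxas1, thromboxane synthase of myeloid cells and platelets (-1.38), Itgax, the integrin CD11c (-1.05), Hcls1 (-1) and Prkcb (-1.16) are also known from blood cells. Pirb passed the filter on low signal only through the wild-type ND array. These genes were picked from the lower ones, and the share of blood cell genes among all genes was not taken. Of the higher genes, Klf2 (1.03) is known from lymphocytes and Mmp12 (1.01) from macrophages. Rac2, a GTPase of blood cells chosen after its values were seen, was just short of 2-fold, with 138.0 and 70.7 (-0.96). Upstream of Cxcl1 the window held a match to the kappa B pattern of NF-kB, which occurred at 1.13% of all genes and at 1 of 20 genes of the list with a window. The stretch, chr5:90891144-90891213 on the plus strand of GRCm38.p6, runs from 101 to 32 bases before the start, with the match in capitals, and both strands were searched.
Cxcl1: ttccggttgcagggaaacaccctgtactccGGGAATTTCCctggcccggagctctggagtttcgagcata

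Markers of single blood cell types gave a mixed account. For Kupffer cells and macrophages, 15 of 16 markers on the array were kept, with a median of -0.070, or 0.061 under median scaling. They went both ways, with Msr1, a scavenger receptor, at 0.61, Csf1r at -0.27, Cd14 at -0.33, C1qb at -0.23, Itgax at -1.05, Adgre1, the classical macrophage antigen, at -0.09, Clec4f, the Kupffer cell lectin, at 0.14, Cd5l at 0.11 and Cd68 at -0.07. Their summed signal was 5272.8 in wild type and 5026.9 in HSL-null liver. Neutrophil markers had 3 of 11 genes kept, at -1.03 for Il1b, -0.54 for Csf3r and -0.06 for Lcn2. The defining neutrophil genes S100a8 and S100a9 were under the filter, with 19.4 and 17.9 and with 16.1 and 10.2.

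B cell markers had 5 of 9 kept, with a median of -0.53 that became -0.048 with the mean of the probe sets of a gene. Cd79b had -0.95 and Ms4a1, the CD20 gene, 0.02. Ighm had -0.53, but 0.37 by the next probe set. Igh-VS107, an immunoglobulin heavy chain gene, had 37.3 and 18.6 on ND and 8.8 and 45.4 on FD, a log2 ratio of -1 on ND. Without the wild-type ND array, Cd79b and Igh-VS107 would not have passed the filter on low signal. T and NK cell markers had 3 of 14 kept, and Cd3e, Cd3d and Cd8a were dim, with wild-type ND signals of 6.7, 1.6 and 0.5. Their median of -0.38 was 0.10 with the stricter filter on signal, which left 1 gene. Red blood cell markers had 4 of 6 kept, from -0.53 for Bpgm to -0.27 for Hba-a1. How far blood cells left in the livers enter the leukocyte ratios was not tested.

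Hepatocyte markers checked the tissue. All 13 on the array were kept, with signals of 6913.0 and 5382.0 for Alb, the albumin gene, and of 1938.9 and 1909.9 for Ttr. Their median was -0.23, with 11 of 13 below 0, and it was -0.022 under quantile normalization. A lower ratio was common among the brightest genes of the arrays. Of the 48 genes with a mean signal of 3000 or more, a limit set after the values were seen, 43 were below 0, with a median of -0.17, and the wild-type ND array was the highest of the 4 for 41. Whether scanner or scaling effects at such signals enter the hepatocyte ratios was not tested. The regulators Hnf4a (337.7 and 247.3, -0.45) and Cebpa (2093.4 and 1627.4, -0.36) were lower at signals under that limit. Cebpa was still in the brightest of the 10 groups by mean signal.

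Endothelial markers had a median of -0.11 over 9 genes, or 0.021 under median scaling, and stellate cell and matrix markers -0.093 over 15, or 0.037. Lamc1, a laminin chain gene, had 56.3 and 32.7 (-0.78), Col1a1 -0.48, Reln -0.40 and Sparc 0.38. The cholangiocyte list had 3 genes kept, with Krt8 at 0.26 and Krt18 at 0.24, both of which hepatocytes make too. Adipocyte markers had 4 kept, from 0.03 for Car3 to 0.30 for Lpl, and none was 2-fold different.

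Most immediate early genes were below 0 on ND. Of 26 kept, 21 were below 0 and 5 above, where 52.6% of all genes were below 0. The median was -0.21, or -0.077 under median scaling. Gadd45a, a growth arrest gene, had 91.7 in wild type and 57.2 in HSL-null liver (-0.68), Id1 82.9 and 51.8 (-0.68), Klf10 200.7 and 129.2 (-0.64, and -0.75 at another probe set), Egr1 94.5 and 68.7 (-0.46) and Dusp1, a MAP kinase phosphatase, 371.3 and 268.1 (-0.47). Above 0 were Btg1 (0.52), Klf9 (0.28), Sgk1 (0.14) and Gadd45g (0.06). The 1 gene past 2-fold was Klf2, a transcription factor of endothelium and lymphocytes, with 21.3 and 43.6 on ND and 20.7 and 45.8 on FD, a log2 ratio of 1.03. The FD pair had 22 of the 26 above 0, with a median of 0.47.

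Acute phase genes were nearly level, with a median of -0.084 over 26 genes, or 0.046 under median scaling, and none 2-fold different. The metallothionein genes Mt1 (985.2 and 1382.1, 0.49) and Mt2 (701.5 and 999.4, 0.51), which answer metals and glucocorticoids, were above the rest. Fga, a fibrinogen chain, had -0.46, Saa3 -0.41 and Saa2, with 2456.2 and 2387.8, -0.04. Complement and coagulation genes had a median of 0.074 over 34 genes, with C9 at 0.48, Masp1 at 0.45 and Mbl2 at 0.33. F7, coagulation factor VII, had -0.61, but 0.04 by a dimmer probe set. Interferon-induced and MHC genes had a median of 0.0079 over 29 genes, with Usp18 at 0.73 and H2-Ab1 at 0.49.

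Heme genes held a contrast on ND between the enzymes of breakdown. Blvra, biliverdin reductase, had 30.5 in wild type and 86.4 in HSL-null liver on ND, and 76 and 73.9 on FD, a log2 ratio of 1.5 on ND. The wild-type ND pool was thus the 1 low pool. Hmox1, heme oxygenase 1, which makes biliverdin, had 369.8 and 240.4 on ND (-0.62) and 239.1 and 257.1 on FD. The wild-type ND pool was thus the 1 high pool for Hmox1, and the contrast rests on that array. Alas1, the rate-limiting enzyme of heme synthesis, had 1726.9 and 1174.2 (-0.56). The list had a median of -0.13 over 19 genes, 4 above 0, and the median was -0.0038 under median scaling.

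Oxidative phosphorylation genes had a narrow range of ratios, with a median of 0.052 over 56 genes, from -0.14 to 0.39, with 38 above 0. Ndufb8, of complex I, had the largest ratio, with 533.4 and 700.4. Proteasome genes had a median of 0.12 over 30 genes, 22 above 0, led by the catalytic subunit genes Psmb6 (0.43) and Psmb5 (0.38). Ribosomal protein genes had a median of -0.082 over 23 genes, or 0.048 under median scaling, lysosomal genes 0.053 over 37 (from -0.76 to 0.48), and urea cycle and amino acid genes 0.017 over 33 (from -0.61 to 0.49). In the last group Gldc, of glycine cleavage, had 0.49 and Cps1, the first enzyme of the urea cycle, -0.23. Cell cycle genes had a median of 0.021 over 22 genes, with Lig1, DNA ligase 1, at 1.11, Mad2l1 at 0.72 and Mcm4 at -0.72, all dim. Lig1 passed the filter on low signal only through the HSL-null ND array, so the filter favours its high ratio. Nuclear receptor genes had a median of -0.066 over 22, or 0.064 under median scaling, with Rxra at -0.47 and Nr1i2, the xenobiotic receptor PXR, at 0.31. Of 9 skeletal muscle markers, the 1 kept was at 0.12.

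**Figure D5:**
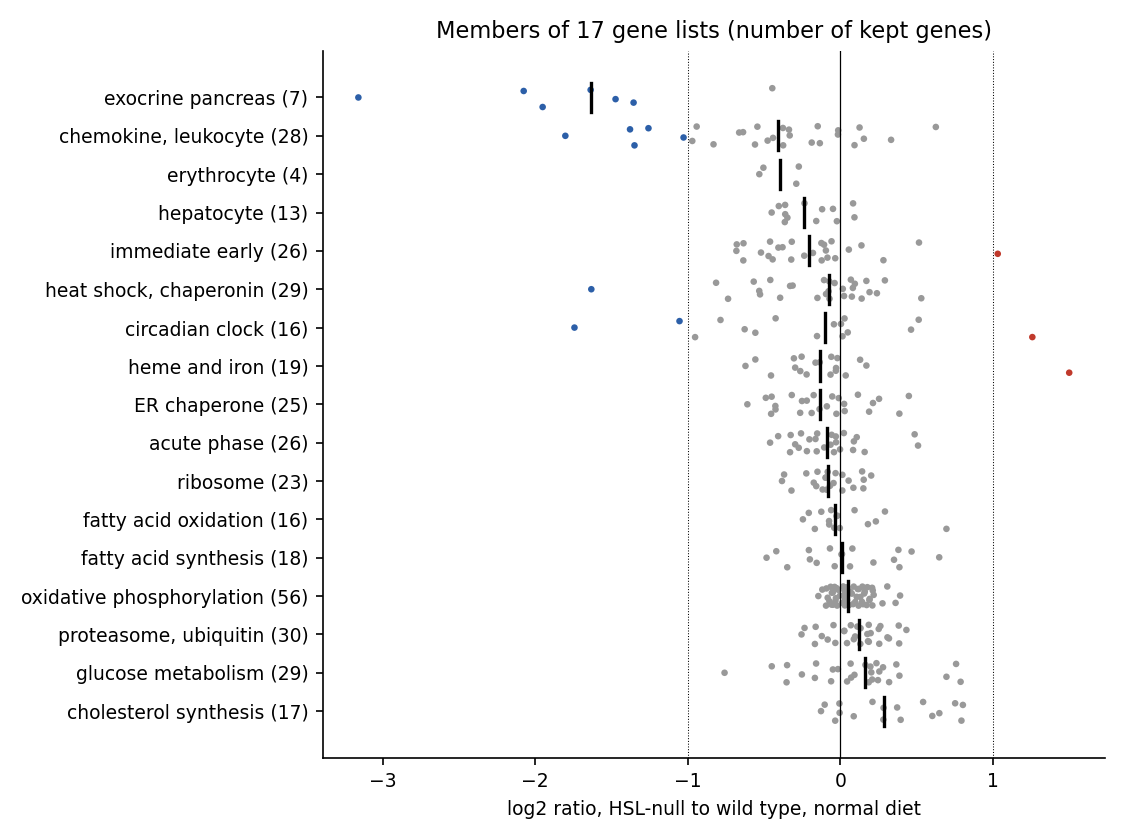
Log2 ratios (HSL-null over wild type) on normal diet for the kept members of 17 gene lists, 1 point per gene, with a black bar at each list's median, colour for genes past 2-fold and the number of genes in brackets. Medians run from -1.64 for exocrine pancreas and -0.41 for chemokine and leukocyte genes to 0.28 for cholesterol synthesis, while oxidative phosphorylation genes lie within -0.14 to 0.39.

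The lists together held 7 of the 24 higher and 18 of the 52 lower genes, and 774 of all 4829. Outside them, the highest gene was Gpcpd1, a glycerophosphocholine phosphodiesterase, with 17.3 in wild type and 71.2 in HSL-null liver on ND, and 21.9 and 49.0 on FD. Its log2 ratio on ND was 2.04. Gtf2f2, a subunit of the transcription factor TFIIF, had 15.8 and 55.3 on ND and 43.1 and 60.4 on FD (1.81). Immt, which shapes mitochondrial cristae, had 33.7 and 99.9 on ND and 92.5 and 83.1 on FD (1.57). Gpcpd1 was high in both HSL-null pools, while Gtf2f2 and Immt were low in the wild-type ND pool alone. All 3 were read by probe sets whose suffix marks relaxed rules of probe choice, and dim second probe sets of Gpcpd1 and Immt had -0.73 and -0.71.

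Tm9sf3, a Golgi membrane protein gene, had 64.5 and 177.2 on ND and 79.8 and 142.6 on FD (1.46), but 0.16 at another probe set. Dct, dopachrome tautomerase, had 33.2 and 85.8 (1.37), Pea15a, a death effector domain adaptor, 20.1 and 50.7 (1.33), and Tubb3, a beta tubulin gene read by a family probe set, 127.9 and 287.2 (1.17). C1d (58.2 and 130.6), Prelid1, a mitochondrial lipid transfer protein gene (66.8 and 139.6), and Dcaf12 (57.9 and 120.4) had 1.17, 1.06 and 1.06. For each of these 7 genes the wild-type ND pool was the lowest of the 4. Muc1 (1.24), Aloxe3 (1.14), Add1 (1.12), Gm7775 (1.08), Matk (1.04) and Mmp12, a macrophage elastase (1.01, and 0.53 at another probe set), complete the group. Sphk2, a sphingosine kinase, had 1.05, but 0.0084 by a dimmer probe set. Just short of 2-fold and chosen after their values were seen were Impa1, an inositol phosphatase (79.5 and 156.5, 0.98), and at higher signal Eif5, a translation initiation factor (277.6 and 478.3, 0.78).

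Among lower genes outside the lists, Tbc1d10a, a Rab GTPase activator, had 80.9 and 12.6 on ND and 56.1 and 24.1 on FD (-2.68), but -0.17 at another probe set. Nsf, the vesicle fusion ATPase, had 39.9 and 7.2 on ND and 47.7 and 45.2 on FD (-2.47). Urm1, a ubiquitin-like modifier (40.8 and 11.5, -1.83), and Fgf4 (41.0 and 10.8, -1.92) had their low signal in the HSL-null ND pool alone, as did Nsf. Krtap3-1, a hair keratin-associated gene, had 73.2 and 22.5 (-1.70). Hnrnpul2 had -1.10, and -0.83 at its other probe set, and the serine protease gene Prss32 had -1.28 and -1.25.

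The other lower genes outside the lists had log2 ratios from -1.44 for Pip4k2a to -1 for Twf2. Slc5a6, a vitamin transporter gene (56.7 and 26.8), Kdm1a, a histone demethylase gene (36.7 and 14.9), Apbb1 (40.5 and 16.3), Hic1 (54.8 and 25.6), Crybb2 (106.9 and 46.4) and Rufy1 (36.3 and 16.4) are examples. Several are known from other tissues, such as Chrne, a muscle acetylcholine receptor subunit, Sox10, a neural crest factor, Htr4, a serotonin receptor, Hcn3, an ion channel, and Cox6b2, a testis cytochrome oxidase subunit. All 5 were dim, with wild-type signals of 55.8, 43.5, 37.1, 35.6 and 41.2. Across the 76 genes, 9 had another kept probe set, of which 8 had the same direction and 3 (Cxcl1, Prss32 and Usp2) were also past 2-fold. The share in the same direction over all 687 genes with a second kept probe set was not taken. Second probe sets under the filter, such as those of Gpcpd1 and Immt with opposite ratios, are outside this count. Suffix probe sets read 19 of the 76, against 621 of 4829.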

How the data were processed

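Per the labels' protocols, 4.8 ug of total RNA per pool was labelled and hybridised to Affymetrix MG_U74Av2 arrays. Each value in the deposited table is a linear intensity for 1 probe set on 1 array, which the authors made with MAS5 per the submitters' processing notes (the version is not stated in the sources used here). A trimmed mean (2%) of 100.1 on each array shows scaling to a common mean before deposit. Other deposited files hold run settings, and detection calls were not used here. Of 12488 probe sets, 66 were controls. Of the rest, 10833 had 1 gene in the platform annotation, 396 several and 1193 none, and 10817 of the 10833 were matched to RefSeq genes of GRCm38.p6, with 0 symbols changed.

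Log2 ratios were taken after raising signals below 6.1 (the 25th percentile) to that floor. Probe sets with a 4-array mean of at least 26.9 (the median) were kept, 5615 in all, and the brightest stood for its gene. A gene counted as different at 2-fold. Having 1 array per group allowed neither a test nor a p-value, and the small number of arrays limits precision. A ratio against a signal under the floor is a lower bound.

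The comparison, the 45 gene lists and the rules were chosen with earlier results of these data known. Named were Lipe, every gene past 2-fold, up to 6 members of each list with the largest ratios plus its central genes, and kept genes within 1 Mb of Lipe. Alternatives were 3 scalings (quantile, median, cyclic loess), a floor at the median, a pseudocount of 16, filters at none, at 100 and on the ND arrays, averaging the probe sets of each gene, no suffix probe sets, cut-offs of 1.5 and 3, and removal of marker genes. Motifs were searched on both strands of the 250 bases before each RefSeq start. Python 3.11.15, pandas 2.3.3, numpy 2.4.6 and, for cyclic loess, limma 3.58.1 in R 4.3.3 were used, and the scripts were tested on simulated data.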

Additional observations from a re-analysis of the deposited data

Results flagged for a closer look

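Among genes 2-fold lower in HSL-null liver on ND, 8 were 2-fold higher on FD, where 1.86% of all genes were, and 77 of all 4829 genes were 2-fold different on FD in the direction opposite to their ND ratio, whatever its size. The differences between the diets were not tested, since 1 array stood for each group. For Cxcl1 the log2 ratio was -1.80 on ND against 1.98 on FD. With ND first, they were -1.35 and 1.31 for Ptpn22, and Itgb2 had -1.38 and 1.01, Cytip -1.26 and 1.05, and Il1b -1.03 and 1.47. Igh-VS107 had -1.004 and 2.37, Chrne -1.10 and 1.26, and Krtap3-1 -1.70 and 1.01. The chemokine and leukocyte list had a median of -0.41 on ND against 0.32 on FD. The immediate early list had -0.21 and 0.47, and the cholesterol synthesis list 0.28 and -1.19, both untested as well.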

How the results depend on the processing

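No paired analysis was possible because each group had 1 array, and no replicate could be left out. The counts of 24 higher and 52 lower genes became 9 and 19 with a pseudocount of 16, 95 and 219 with no filter, 7 and 7 with a mean signal of at least 100, 115 and 211 at 1.5-fold and 3 and 15 at 3-fold. The lower count was 30 with the floor at the median. Genes for which 1 array lay 2-fold outside the other 3 numbered 1 higher and 9 lower for HSL-null ND, and 8 and 9 for wild-type ND. The median of the neutrophil list became -0.063 with a mean signal of at least 100. The B cell median became -0.048 with the mean of the probe sets and without suffix probe sets. The T and NK cell median became 0 with no filter and 0.10 at a mean signal of 100. The pancreas median became -1.26 with a pseudocount and at a mean signal of 100, and the clock median -0.49 at 100. The stricter filter leaves fewer genes. The causes of the other shifts were not tested. In the other settings the counts stayed within 1.5 times. Dim signals limit precision.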
